A study of Mus musculus with 2 samples.

Results

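A set of 9 genes known as markers of resting fibroblasts was followed through an ATAC-seq comparison of cardiac fibroblasts with and without Piezo2 silencing. They were Pdgfra, Cd34, Dpp4, Ly6a, Dpt, Col15a1, Gsn, Penk and Pi16. All peaks that the deposited annotation assigned to one of these 9 genes were taken, including intergenic peaks whose nearest transcription start site (TSS) was theirs. This gave 42 of the 63316 peaks in the table, spread over 8 of the 9 genes. Pi16 had none. In all, 20186 genes had at least 1 peak.

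ATAC-seq uses a transposase that cuts preferentially in open chromatin, so that read density over a region measures its accessibility. Both libraries were prepared from primary murine cardiac fibroblasts exposed to TGF-β at 5 ng/ml for 24 h, with 1 library per condition. The first, labelled NC, received the scrambled siRNA according to the study's legend. The second, siPiezo2, received siRNA against Piezo2, a mechanosensitive cation channel. TGF-β was thus common to both libraries, no untreated library was among those analysed, and the knockdown was a transient transfection of a bulk culture. The labels gave no strain, sex or age of the mice, and a fall in Piezo2 mRNA cannot be read from chromatin. The text deposited with the series named a Tet3 knockout by Cre in place of the siRNA, and all values below rest on the sample labels.

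Resting fibroblasts of the heart maintain the interstitial matrix, and TGF-β drives them towards myofibroblasts that contract and deposit collagen. Single-cell studies of several organs describe a perivascular, adventitial state marked by Pi16, Dpp4, Cd34 and Ly6a and a parenchymal state marked by Col15a1, with Pdgfra, Dpt and Gsn shared more widely. Markers of this kind tend to be lower in myofibroblasts, and accessibility at a gene's start or at distal elements is one of the layers at which such a change can be seen.

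Values are the authors' normalized read densities, in reads per kb of a 2000-bp window around each peak. A change is log2((siPiezo2 + 1)/(NC + 1)), which is negative where siPiezo2 was lower. For a gene, the densities of its peaks were summed first. The windows of all peaks held 4615335 reads in NC and 2754046 in siPiezo2, and a median member peak held 70.5 and 39 reads, beside 58 and 36 for all peaks. Intervals are 95% exact binomial (Clopper-Pearson) intervals from these reads and cover counting error only. Among peaks common to the pair of libraries, the changes had a variance 2.12 times that of counting error. Intervals called widened below apply this factor to the counting variance in a normal approximation on the log2 scale. They are about 1.46 times as wide as that approximation without the factor, and are not stretched copies of the exact intervals. With no replicates, no difference had a replicate check and no p-value was computed.

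For most of the member peaks the interval of the change reached or crossed 0, which at this depth does not show that they were unchanged. The median change was -0.027 over the 42 member peaks and -0.13 over all peaks, and 54.8% of member peaks were lower in siPiezo2, against 63.7% of all peaks. With 1 added to both densities, 5 member peaks, or 11.9%, were below 0.66 of NC, where 13.5% of all peaks were. With 0.1 added, the Gsn peak in intron 12 joined them, which gave 6, or 14.3%, beside 14.8%. A single member peak, or 2.38%, was above 1.5 of NC with 1 added, where 3.21% of all peaks were. The interval lay below 0 for 4 member peaks, or 9.52%, beside 11.4% of all peaks, and above 0 for 1, or 2.38%, beside 3.63%. It reached or crossed 0 for the remaining 37. Of those below 0, the Col15a1 peak 10.8 kb past its start and the Dpp4 peak at 32.9 kb were called in NC only. The widened interval lay below 0 for 2 member peaks, or 4.76%, beside 3.74% of all peaks, and above 0 for none, beside 1.16%. These shares were close to the background in the same table. In a bulk culture, fewer cells with an open site and a less open site in each cell cannot be told apart.

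**Figure D1:**
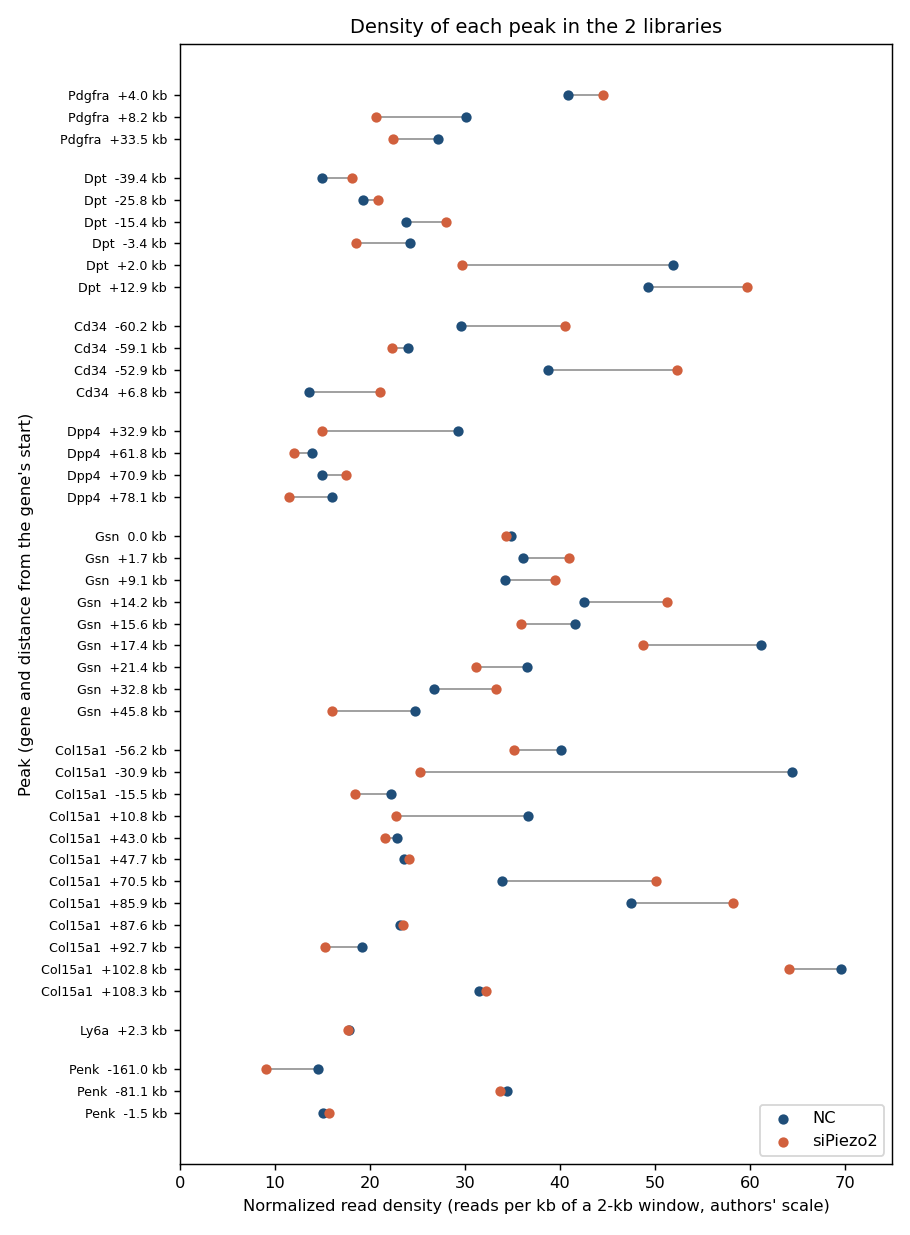
Normalized read density (horizontal axis, reads per kb) of each of the 42 member peaks in NC (blue) and siPiezo2 (orange), with peaks named on the vertical axis by gene and distance from the gene's start. The widest gaps are those of the Col15a1 peak at -30.9 kb, 64.4 in NC and 25.3 in siPiezo2, and of the Dpt peak at 2.05 kb, 51.9 and 29.7.

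**Figure D2:**
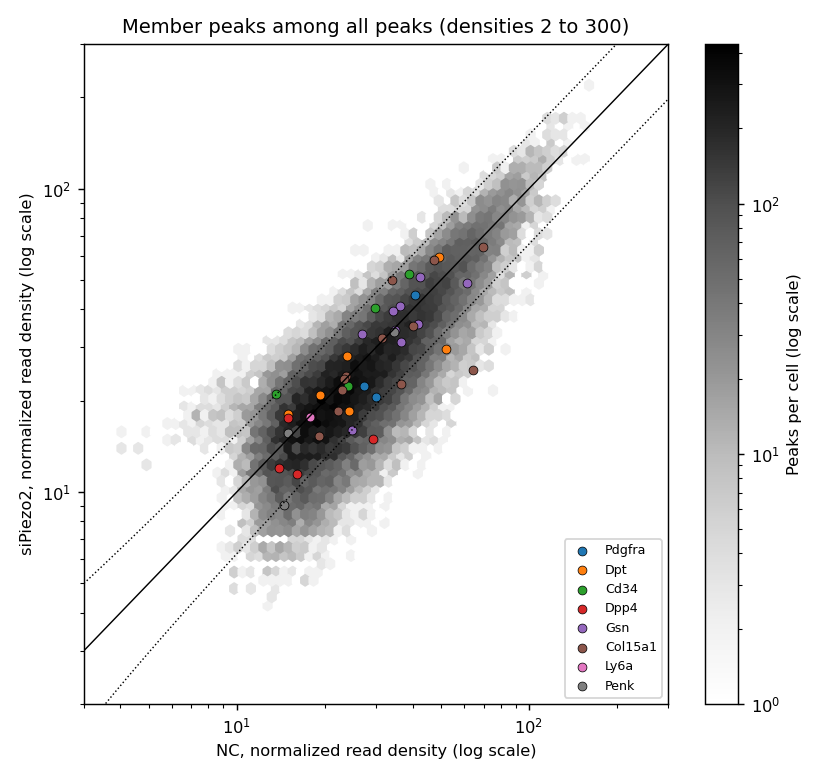
Density in siPiezo2 (vertical, log scale) against NC (horizontal, log scale) for all peaks within the axes, binned in grey by number, with the 42 member peaks as coloured points. The solid line marks equal densities and the dotted lines 0.66 and 1.5 of NC with 1 added to both densities; 36 member peaks lie between the dotted lines, 5 below and 1 above.

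Member peaks lay mostly in introns and seldom at starts. Their median distance from the nearest TSS was 9.22 kb, and that of all peaks 10.3 kb. Introns held 24 of the 42 peaks, or 57.1%, compared with 42.0% of all peaks, and intergenic sequence held 13, or 31.0%, compared with 30.7%. Of the 42, 14 lay upstream of their gene's start. Only 1 member peak carried the annotation's class of promoter within 1 kb, where 14.6% of all peaks did. A peak within 1 kb of any of its transcription start sites was present for 2 of the 8 members with a peak, Gsn and Pdgfra, and for 59.1% of all genes with a peak. Measured from the first base of the gene, Gsn alone had one. The authors' caller found 16 member peaks in both libraries, 25 in NC only and 1, a Dpt peak, in siPiezo2 only. A call in NC only was also the most frequent kind over all peaks, at 64.0%. The windows of all peaks held more reads in NC than in siPiezo2, 4615335 and 2754046. Reads outside these windows were not available, so sequencing depth could not be compared. The cause of the excess of calls in NC was not tested. Changes differed by kind of call in the members as in the table. The median was 0.042 over the 16 member peaks called in both libraries and -0.10 over the 25 called in NC only, beside 0.0025 and -0.23 for all peaks of each kind. By position, it was -0.045 over the 24 intronic and -0.034 over the 13 intergenic member peaks, beside -0.17 and -0.18 for all such peaks.

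Gsn encodes gelsolin, which severs and caps actin filaments. The gene (ENSMUSG00000026879, chr2:35146392-35197904, plus strand) carried 9 peaks, 1 over its start and 8 in introns. The peak over the start had a density of 34.8 in NC and 34.3 in siPiezo2, a change of -0.021 (-0.54 to 0.49). The sequence before this start is shown because it is the only member start covered by a peak. The sequences before Cd34 and Dpp4 are shown for contrast, since their sums had the highest and the lowest log2 change while no peak covered their starts. Each is the 250 bases upstream of a RefSeq start in GRCm38.p6, written 5′ to 3′ on the strand of the gene, with capitals marking motif matches on either strand. They lie at chr2:35256109-35256358 (plus), chr1:194938571-194938820 (plus) and chr2:62412232-62412481 (minus), respectively.
Gsn: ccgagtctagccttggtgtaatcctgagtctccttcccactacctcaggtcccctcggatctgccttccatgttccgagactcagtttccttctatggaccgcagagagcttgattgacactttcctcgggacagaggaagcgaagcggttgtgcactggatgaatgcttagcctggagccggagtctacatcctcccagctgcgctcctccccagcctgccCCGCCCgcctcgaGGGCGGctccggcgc
Cd34: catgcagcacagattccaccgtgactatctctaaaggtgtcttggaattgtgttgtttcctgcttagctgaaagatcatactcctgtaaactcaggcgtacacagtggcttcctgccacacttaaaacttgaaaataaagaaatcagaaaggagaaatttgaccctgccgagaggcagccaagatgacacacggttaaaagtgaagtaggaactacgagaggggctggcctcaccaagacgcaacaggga
Dpp4: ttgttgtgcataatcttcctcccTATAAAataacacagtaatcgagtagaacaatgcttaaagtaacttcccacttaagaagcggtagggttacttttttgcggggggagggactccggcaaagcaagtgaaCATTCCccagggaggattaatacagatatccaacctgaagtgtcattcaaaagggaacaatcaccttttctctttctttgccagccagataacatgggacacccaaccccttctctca
In the table's own coordinates the Gsn peak ran from -188 to 136 relative to the gene's start, which lies 21 bases past this RefSeq start. It therefore covered the bases nearest to the start, where both capitals of Gsn sit. They are GC boxes, GGGCGG on either strand, at -28 to -23 and -15 to -10 from the start. In Dpp4 the capitals are a match to the letters of the TATA box (TATAAA) at -227 to -222 and to the TEAD motif (GGAATG, on the other strand) at -118 to -113. The search took matches at any position in the 250 bases. Cd34 held none of the motifs searched, which also included the SRF CArG box and the AP-1 motif TGACTCA. Over the 250 bases before 32841 RefSeq starts, a GC box was present in 32.7%, a TATA box in 12.4%, a TEAD motif in 12.6%, an AP-1 motif in 4.46% and a CArG box in 1.47%. GC content was 60.8% for Gsn, 46.4% for Cd34 and 43.6% for Dpp4, beside a median of 52.4%. RefSeq promoters were found for 7 of the 9 genes, without Ly6a and Penk, and only those of Gsn and Dpp4 held a match. A match is a run of letters and not evidence of binding.

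The 8 intronic Gsn peaks went either way. Intron 2 alone held 4 of them, with the strongest at 17.4 kb past the start, 61.2 in NC and 48.7 in siPiezo2 (-0.32, -0.74 to 0.08). Its neighbour at 14.2 kb was 42.5 and 51.3 (0.26, -0.17 to 0.70). The greatest change of the gene on the log2 scale was in intron 12, at 45.8 kb, where density was 24.8 in NC and 16.1 in siPiezo2 (-0.60, -1.32 to 0.10). Summed over the 9 peaks, Gsn stood at 339 in NC and 331 in siPiezo2, from 844 and 517 reads, a change of -0.032 (-0.19 to 0.13). Some of the windows overlap, so that 5 of the 9 peaks share reads with a neighbour.

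Pdgfra, the receptor tyrosine kinase for platelet-derived growth factor that marks resident fibroblasts of the heart, carried 3 peaks (ENSMUSG00000029231, chr5:75312953-75358876, plus strand). The strongest was in an annotated 5′ UTR, 389 bases past the start of a shorter transcript and 4.0 kb past the first base of the gene. Its density was 40.9 in NC and 44.5 in siPiezo2 (0.12, -0.34 to 0.57). The peak at 8.24 kb was lower in siPiezo2, at 30.1 and 20.6, with an interval that spanned 0 (-0.52, -1.16 to 0.09). The third, in intron 17, was 27.2 and 22.4. All 3 were called in NC only, although the strongest had the higher density in siPiezo2. The gene's sum was 98.2 in NC and 87.6 in siPiezo2, a change of -0.16 (-0.48 to 0.14).

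Cd34 was the one member whose summed accessibility was higher in siPiezo2 under the authors' normalization, while the reads taken without any scaling gave -0.26, beside -0.70 for all genes. It encodes a surface sialomucin of haematopoietic progenitors, endothelial cells and stromal cells (ENSMUSG00000016494, chr1:194621127-194643587, plus strand). Of its 4 peaks, 3 were intergenic and far upstream. The peak at -52.9 kb, chr1:194568018-194568417, was 38.7 in NC and 52.4 in siPiezo2 (0.43, -0.017 to 0.86). The peak at -60.2 kb was 29.6 and 40.6 (0.44, -0.066 to 0.95), while that at -59.1 kb, whose window overlaps it, was 24.1 and 22.3 (-0.10, -0.75 to 0.52). In intron 1, 6.85 kb past the start, the density of 13.6 in NC and 21.1 in siPiezo2 made this the only member peak above 1.5 of NC. It rested on 31 and 35 reads, with an interval of -0.14 to 1.34 around 0.60. None of the 4 peaks alone had an interval above 0. Their sum did, at 106 in NC and 136 in siPiezo2, from 259 and 216 reads (0.36, 0.09 to 0.63). Widened, the interval reached from -0.019 to 0.74. Relative to the median of all genes the change was 0.47, and 94.4% of genes with a peak had a lower value.

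The Cd34 value depended to a degree on a single peak. Without the peak at -52.9 kb it was 0.32 (-0.025 to 0.65), and without any other peak it kept an interval above 0, with values of 0.32 to 0.47. Restricted to the 3 peaks called in both libraries, it was 0.47 (0.17 to 0.77). Cd34 is shared with endothelial cells. The 5 endothelial markers looked at, all of which had a peak, had a median change of -0.0098 and ranged from -0.71 to 0.04, with a sum of 904 in NC and 851 in siPiezo2, and 1 of the 5 had a peak within 1 kb of a start. The part of other cells in the Cd34 value was not tested.

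Dpp4 was the member with the lowest value. It encodes a membrane-bound serine peptidase, also known as CD26, that marks adventitial fibroblasts (ENSMUSG00000035000, chr2:62160417-62242575, minus strand). Most of the difference came from 1 peak. This peak, chr2:62209563-62209881, was 29.3 in NC and 14.9 in siPiezo2, from 69 and 24 reads (-0.93, -1.66 to -0.24). The table files it as a promoter at -1130 bases, but from the start of a short internal transcript, and it lies 32.9 kb inside the gene. Its widened interval was -1.90 to 0.05. The other three were weak and sat in introns 20, 23 and 25, with densities of 14.0 to 16.1 in NC and 11.5 to 17.5 in siPiezo2. All 4 peaks were called in NC only. The sum was 74.3 in NC and 56.0 in siPiezo2, a change of -0.40 (-0.78 to -0.026). Since the 4 peaks entered the table through NC alone, where such peaks had a median of -0.23 over the whole table, this interval below 0 is a description and carries no weight as a difference of Dpp4. Without the peak at 32.9 kb it was -0.13 (-0.59 to 0.33), and the widened interval of the sum spanned 0 (-0.93 to 0.13).

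Ly6a encodes the surface antigen Sca-1 (ENSMUSG00000075602, chr15:74866726-74869756, minus strand). It had a single weak peak in its intron 3, with a density of 17.8 in NC and 17.7 in siPiezo2. At 41 and 29 reads the interval of the change, -0.75 to 0.71, was too wide to show a difference in either direction at this depth. The density of this peak exceeded that of only 24.5% of all peaks.

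**Figure D3:**
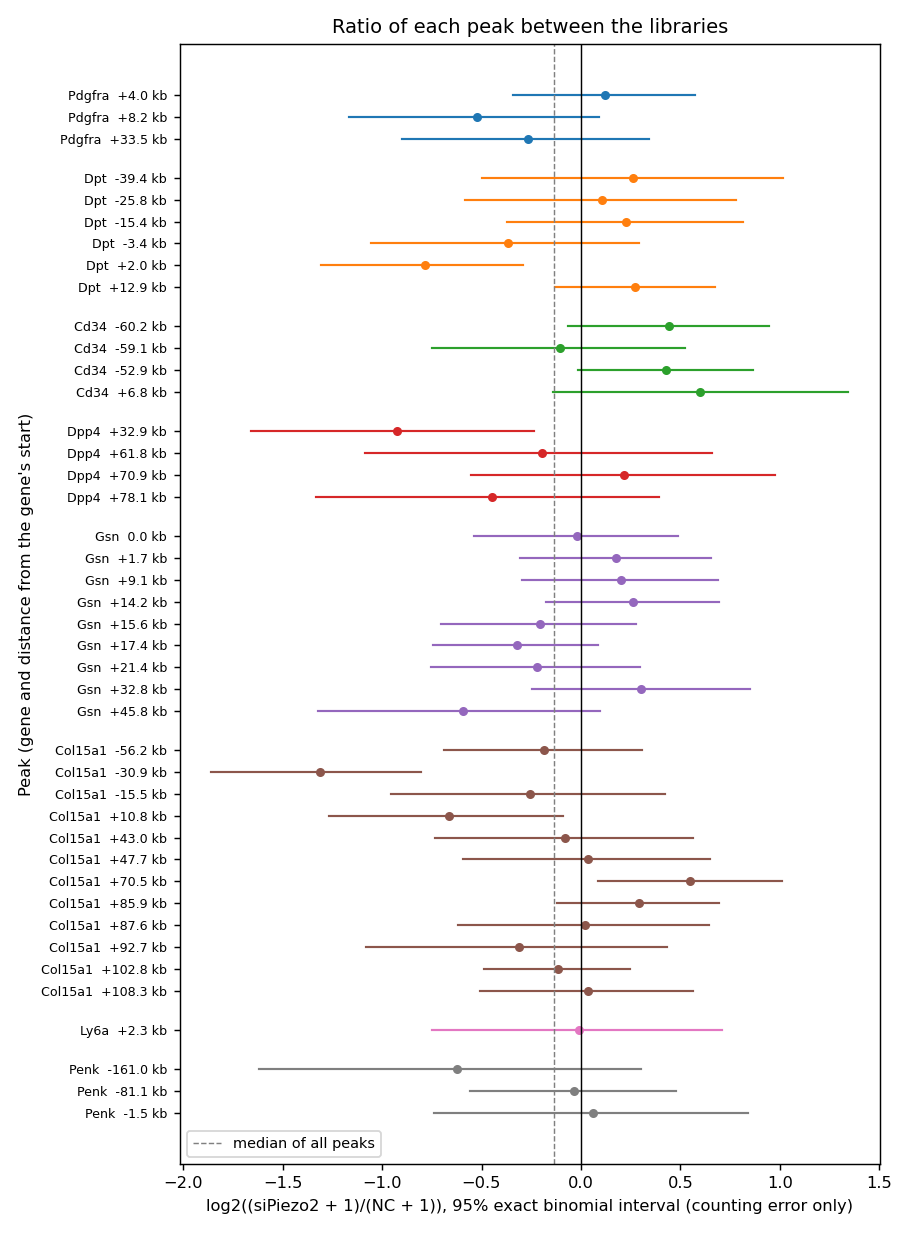
Change of each of the 42 member peaks, as log2((siPiezo2 + 1)/(NC + 1)) (horizontal axis), with 95% exact binomial intervals for counting error, coloured by gene. The solid line marks 0 and the dashed line the median of all peaks at -0.13; 4 intervals lie below 0, 1 lies above 0 and 37 reach or cross it.

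Dpt encodes dermatopontin, a small matrix protein that binds decorin and collagen (ENSMUSG00000026574, chr1:164624213-164651835, plus strand). Its pair of intronic peaks went in opposite directions. In intron 1, 2.05 kb past the start at chr1:164625942-164626582, density was 51.9 in NC and 29.7 in siPiezo2, from 130 and 46 reads (-0.79, -1.30 to -0.29). In intron 2, at 12.9 kb, it was 49.3 in NC and 59.7 in siPiezo2 (0.27, -0.13 to 0.67). The densities were similar in NC. The intervals of the changes did not overlap, but the widened ones did, at -1.49 to -0.08 and -0.29 to 0.84. The intron 1 peak was also, beside the Col15a1 peak described next, 1 of 2 member peaks whose widened interval stayed below 0. Upstream, 4 intergenic peaks had densities of 15.0 to 24.2 in NC and 18.1 to 28.0 in siPiezo2, with changes of -0.37 to 0.26 and intervals across 0. The gene's sum, 184 in NC and 175 in siPiezo2, did not show this contrast, with a change of -0.069 (-0.29 to 0.15). Leaving out the intron 1 peak gave 0.14 and leaving out the intron 2 peak -0.22, both with intervals across 0.

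Col15a1 encodes a nonfibrillar collagen of basement membrane zones and had the most peaks, 12, of any member (ENSMUSG00000028339, chr4:47208161-47313163, plus strand). The widest difference among all member peaks was at -30.9 kb, chr4:47176924-47177524. There density was 64.4 in NC and 25.3 in siPiezo2, from 162 and 39 reads, a change of -1.31 (-1.86 to -0.80; widened, -2.05 to -0.58). It was called in both libraries, and its mean density exceeded that of 88.1% of all peaks. A peak in intron 2, at 10.8 kb, was lower too, with 36.6 and 22.7 (-0.66, -1.27 to -0.09; widened, -1.48 to 0.15). It was called in NC only, where such peaks had a median of -0.23 over the whole table, so its interval below 0 carries no weight. In intron 14, at 70.5 kb, the direction was the opposite, with 33.9 in NC and 50.1 in siPiezo2 (0.55, 0.09 to 1.01; widened, -0.10 to 1.19).

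The other nine Col15a1 peaks had changes from -0.31 to 0.29 and intervals across 0. The strongest of them, in the last intron at 102.8 kb, held 69.6 in NC and 64.1 in siPiezo2. Summed over 12 peaks, the gene stood at 435 and 391, from 1079 and 611 reads, a change of -0.15 (-0.30 to -0.0079). The one peak at -30.9 kb carried this value, since without it the change was -0.018 (-0.17 to 0.13). With no intergenic peaks it was 0.02 (-0.16 to 0.19). Restricted to the 5 peaks called in both libraries, it was -0.13 (-0.32 to 0.06). Relative to all genes the sum did not stand out, with 44.1% of genes lower.

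Penk encodes proenkephalin, the precursor of the enkephalin opioid peptides (ENSMUSG00000045573, chr4:4134112-4138819, minus strand). Its 3 peaks all lay upstream. The nearest, at -1.50 kb, was 15.0 in NC and 15.7 in siPiezo2 (0.06, -0.74 to 0.84), and the strongest, at -81.1 kb, was 34.5 and 33.7 (-0.034, -0.56 to 0.48). The farthest of all member peaks, at -161 kb, was 14.5 and 9.08, below 0.66 of NC, but from 32 and 15 reads (-0.63, -1.62 to 0.30). The sum was 64.1 in NC and 58.4 in siPiezo2 (-0.13, -0.52 to 0.25).

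Pi16, a peptidase inhibitor family member that defines adventitial fibroblasts, had no peak of its own in either library (ENSMUSG00000024011, chr17:29536654-29547867, plus strand). A single peak in the table had the start of Pi16 as its nearest TSS. It lay 7.28 kb upstream in the 3′ UTR of BC004004, to which the annotation assigned it, and was called in NC only, with 17.3 in NC and 20.7 in siPiezo2 (0.25, -0.46 to 0.94). A missing peak says that the caller found none at this depth, and not that the chromatin was closed.

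Over the 8 genes with a peak, the median change was -0.10, beside -0.11 for all 20186 genes, and 7 of the 8 were below 0 under the authors' normalization, beside 65.7% of all genes. That count was 4 at equal total density, beside 54.0% of all genes, and 3 with median-of-ratios scaling or recovered reads at equal total, beside 46.4% and 46.3%. The interval lay below 0 for 2 of the 8, Dpp4, with NC-only peaks throughout, and Col15a1, and above 0 for 1, Cd34, where 18.0% and 4.17% of all genes had such intervals. With widened intervals, none of the 8 excluded 0, whereas 8.42% of all genes lay below it and 1.46% above. For the peaks called in both libraries alone, which 5 members had, the median was -0.11, beside 7e-05 for all genes. The sign of the median followed the scaling of the libraries. It was -0.012 at equal total density, and it turned to 0.04 with median-of-ratios scaling and with recovered reads at equal total, where the median of all genes moved along, to -0.027, 0.02 and 0.03. The member median thus exceeded that of all genes by 0.013 to 0.014 under each of these 4 scalings. Median-of-ratios scaling and equal total density multiply each library by a constant, so for them this agreement was largely fixed in advance. The interval of Cd34 was above 0 under all 4 scalings, with changes of 0.36 to 0.50, whereas those of Dpp4 and Col15a1 crossed 0 under each scaling but the authors'. Each of the other 3 scalings raised siPiezo2 relative to NC. They therefore moved Cd34 away from 0 and Dpp4 and Col15a1 towards it, so this pattern is no separate check of these genes. Relative to the median of all genes, Cd34 stood at 0.45 to 0.47 under the 4 scalings.

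**Figure D4:**
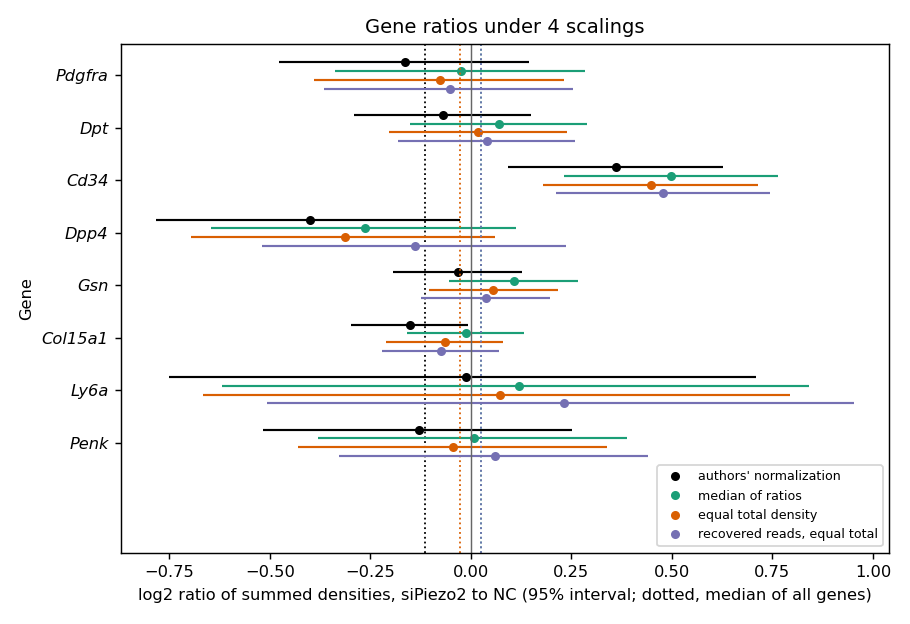
Change of each member gene with a peak, as the log2 ratio of summed densities (horizontal axis), under the authors' normalization (black) and 3 other scalings, with 95% exact binomial intervals. Dotted lines mark the median of all genes in the colour of the scaling, from -0.11 to 0.03; Cd34 lies right of 0 in all 4, while Dpt, Gsn, Ly6a and Penk change sign between scalings.

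The members were set beside 38 other genes in 4 lists of fibroblast states. The adventitial list, genes that accompany Pi16 and Dpp4, had a median change of -0.05, with 6 of 10 genes lower, which turned to 0.039 to 0.089 under the other 3 scalings. Among its genes with 100 or more reads, the lowest was Scara5, a ferritin receptor, with 78.1 in NC and 62.2 in siPiezo2 (-0.32, -0.69 to 0.03), and the highest was Igfbp6, which binds insulin-like growth factors, with 81.0 and 92.1 (0.18, -0.13 to 0.50). No interval of this list was below 0, and 1 was above 0, that of Pcolce2, the highest of the list at 0.90, whose value rested on 23 and 34 reads and whose widened interval spanned 0 (-0.21 to 2.01). For peaks called in both libraries, the median was -0.12 over 5 genes.

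The parenchymal list, genes that accompany Col15a1, had a median of -0.21, with 7 of 8 genes lower and 1 interval below 0, or 0 when widened. Under the other 3 scalings the median was -0.13 to -0.071. Cxcl12, a chemokine, was its lowest, with 70.3 and 57.5 (-0.29, -0.67 to 0.09), and Lpl, a triglyceride lipase, its highest, with 27.7 and 28.8 (0.05, -0.52 to 0.62). The pan-fibroblast list had a median of -0.23, with 6 of 8 lower and 4 intervals below 0, or 2 when widened, and the other scalings gave -0.14 to -0.089. It ran from Mfap4, a microfibril protein, with 104 and 64.5 (-0.68, -1.03 to -0.34), to Thy1, a surface glycoprotein, with 39.9 and 47.9 (0.26, -0.19 to 0.71). For peaks called in both libraries, the medians of these lists were 0.03 over 4 genes and 0.02 over 7, above those of the members and the adventitial list.

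The myofibroblast list had the lowest median. All of its 12 genes were lower in siPiezo2 under the authors' normalization, and 11, without Cnn1, under the other 3 scalings. The interval was below 0 for 11 genes, or 8 when widened, beside 18.0% and 8.42% of all genes. The median was -0.63, or -0.39 over 8 genes for peaks called in both libraries. The remaining genes of the list had no peak called in both, so their values and intervals rest on peaks called in a single library. No test of the difference between lists was possible with 1 library per condition. The lowest was Acta2, smooth muscle actin, with 209 in NC and 63.5 in siPiezo2, from 523 and 97 reads (-1.70, -2.03 to -1.39), and the highest was Cnn1, the actin-binding calponin, with 48.7 and 48.5 (-0.0069, -0.44 to 0.42). Of the 46 peaks of this list, 23 were below 0.66 of NC and 0 were above 1.5. Of the 42 peaks of the resting markers, 5 were below and 1 above, and of all peaks 13.5% and 3.21%. The myofibroblast genes also differed in layout, since all 12 had a peak within 1 kb of a start, compared with 2 of the 8 resting markers, 6 of 10 adventitial, 2 of 8 parenchymal and 6 of 8 pan-fibroblast genes.

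**Figure D5:**
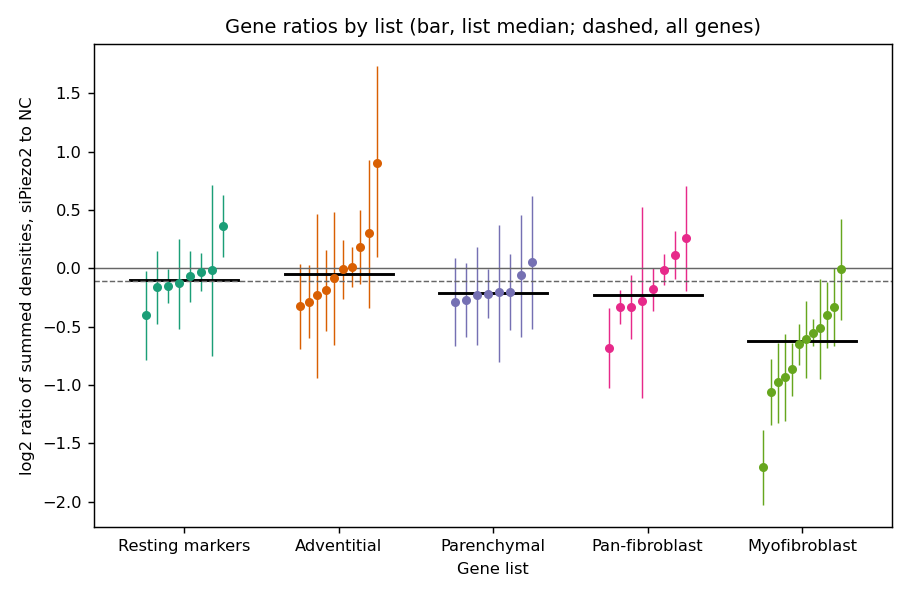
Change of each gene with a peak (points, with 95% exact binomial intervals) as the log2 ratio of summed densities (vertical axis), for the resting markers and 4 other lists (horizontal axis), with a bar at each list's median. The dashed line is the median of all genes at -0.11; the bar of the resting markers, at -0.10, is next to it and that of the myofibroblast list is at -0.63.

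Markers of other cells were read beside the label of the culture. A peak within 1 kb of a start was found for 1 of 5 endothelial, 0 of 5 leukocyte, 1 of 5 mural, 1 of 5 cardiomyocyte and 3 of 5 epicardial or mesothelial markers. Among genes with a peak this was 20%, 0%, 20%, 25% and 60%, beside 25% of the members and of the parenchymal list, 60% of the adventitial and 75% of the pan-fibroblast list and 59.1% of all genes. Cd68, of the leukocyte list, and Myh6, of the cardiomyocyte list, had no peak. The leukocyte list had a median change of -0.39 (range -0.61 to -0.05), with summed densities of 386 in NC and 293 in siPiezo2. The mural list had a median of -0.0019 (-0.82 to 0.16), with sums of 458 and 397. The cardiomyocyte list had a median of -0.07 (-0.28 to 0.09), with 384 and 346. The epicardial list had a median of 0.33 (-0.48 to 0.68), with 259 and 274 and 4 of 5 genes higher. The presence of these cells in the culture and their part in the members' values was not tested.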

How the data were processed

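Chromatin accessibility was measured by ATAC-seq in TGF-β-treated cardiac fibroblasts of the mouse, with 1 library for NC and 1 for siPiezo2, grouped by their labels. The labels name primary cells and 1 commercial kit, which the study's list of reagents also holds, whereas its protocol describes minced tissue and another kit. This was not settled.

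A single table of peaks was deposited. For each peak it gives the signal in each library, a read density that the authors had normalized by regressing log2 ratios on mean log2 densities across the peaks common to both libraries. The labels name BWA 0.7.12 and mm10, and the methods also name Picard, MACS2 and HOMER. The tool behind the normalization is not given in the sources used here. The table also holds the authors' comparison (log2 ratios, mean log2 densities and p-values), which was not used. Gene starts in the table matched GRCm38 for 1 of the 9 genes and were otherwise those of GRCm39, so peak and gene coordinates are GRCm39 as the table gives them, and no peak sequence was read from the GRCm38.p6 genome.

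From the densities, whole reads per 2000-bp window were recovered, assuming 1 added read per window, with an intercept of -0.248 and a slope of 0.174 that made 99.998% of peaks whole within 0.02. Changes were computed with a pseudocount of 1. Peaks below 0.66 or above 1.5 of NC were counted on the same scale, and 95% Clopper-Pearson intervals were taken from the reads. The variance factor came from the peaks called in both libraries, and so includes any difference between the conditions. Recovery and intervals were tried on simulated Poisson reads with the same added read and the same form of fit. The simulation held no variance beyond counting error, so it does not test the intervals for these libraries. Windows of neighbouring peaks can overlap, and 9 of the 42 member peaks share reads with another.

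Members, lists and tests were chosen with earlier results of these data known. Genes named were all members and, in each list, the lowest and the highest gene with 100 or more reads in both libraries together, and Pcolce2, Cd68 and Myh6 were named after their values were seen. With 1 library per condition a gene has a single ratio, so genes of similar pattern were not sought. Alternatives were other scalings, pseudocounts, fold thresholds and choices of peaks. Intervals were computed in scipy 1.17.1 and tables in pandas 2.3.3 with numpy 2.4.6, under Python 3.11.15, and plots were drawn with matplotlib 3.10.9.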

Additional observations from a re-analysis of the deposited data

How the results depend on the processing

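No paired analysis was possible because each condition had 1 library, and no replicate could be left out. Medians of the member, adventitial, parenchymal, pan-fibroblast and myofibroblast lists are given in this order, with member peaks below and above the fold threshold and, in parentheses, the shares of all peaks. With median-of-ratios scaling the medians were 0.038, 0.089, -0.075, -0.095 and -0.49, with 3 peaks below and 2 above (8.27% and 6.20%). At equal total density, the member, pan-fibroblast and myofibroblast medians were -0.012, -0.14 and -0.54, with 3 and 2 peaks (9.97% and 4.90%). Recovered reads at equal total gave 0.039, 0.059, -0.071 and -0.089 for the lists before the myofibroblast one, with 3 and 2 peaks (7.28% and 7.78%). Without scaling, chosen after seeing the data, reads gave -0.70, -0.67, -0.80, -0.81 and -1.40, with 20 and 0 peaks (59.6% and 0.41%), Cd34 at -0.26 and all genes at -0.70. Peaks at or above the median density gave -0.072 for the pan-fibroblast and -0.72 for the myofibroblast list, with 3 and 0 of 26 peaks (11.5% and 2.91%). Peaks of the annotation's promoter class within 1 kb gave -0.77 for the parenchymal (1 gene), -0.13 for the pan-fibroblast (5 genes) and -0.49 for the myofibroblast list (7 genes). The strongest peak alone gave -0.14 and -0.54 for the pan-fibroblast and myofibroblast lists. Peaks called in both libraries gave -0.11, -0.12, 0.032, 0.016 and -0.39, beside 7e-05 for all genes, so that the member median less that of all genes went from 0.014 to -0.11. A fold threshold of 2 left 1 peak below and 0 above (2.76% and 0.50%). Without intergenic peaks, also chosen after seeing the data, Col15a1 was 0.017 and the pan-fibroblast median -0.038. The cause of these shifts was not tested. The myofibroblast median was below 0 under each of these alternatives, and the lowest of the 5 lists except with that promoter class alone. Of 76 values of single genes under the alternatives, 65 stayed within the interval of the reported value and 17 turned in sign. The sign turned 4 times for Dpt, 4 for Gsn, 3 for Ly6a, 3 for Penk and 1 time each for Pdgfra, Cd34 and Col15a1. Dpp4 kept its sign wherever it had a value. It had none for peaks called in both libraries, for peaks at or above the median density or for the promoter class within 1 kb.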

Other observations

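The table also holds 7 peaks whose nearest transcription start site was that of a member but which the annotation assigned to another gene, so that they entered none of the sums. Of these, 3 were nearest to Dpp4, in introns of Slc4a10 and of Gm13561, with changes of -0.26 to 0.02. The 2 nearest to Pdgfra lay in introns of Gm19583 upstream of the gene, with 17.4 in NC and 17.0 in siPiezo2 and with 17.1 and 14.6. The one nearest to Penk, in an intron of A830012C17Rik, had 16.6 and 17.6. All 7 intervals crossed 0.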
